A study of Mus musculus with 24 samples.

Results

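Reactive astrocyte genes other than those of the filaments form a list of 31 genes that astrocytes are known to raise after injury or inflammation. The members were taken by symbol from the per-library tables of normalised read counts, in which all 31 were present among 24421 gene names. The cells were astrocytes of C57BL6 mice aged 20 weeks, isolated by fluorescence-activated sorting from 4 regions: brainstem, cortex, hippocampus and olfactory bulb. With 2 genotypes and 3 libraries per group there were 24 RNA-seq libraries. Both genotypes carried NFIAfl/fl, floxed alleles of the transcription factor NFIA, together with Aldh1l1-GFP, a reporter driven by the promoter of an astrocyte gene. The genotype labelled knockout also carried Aldh1l1-CreER, an inducible recombinase under the same promoter, and the controls lacked it. The labels name no inducing agent and no date of induction. They do not say whether the 3 libraries of a group came from separate animals, so that every p-value below measures the spread between these libraries, which may be technical. Nor do they say whether libraries of different regions came from the same animals. The averages over regions below treated them as independent, so their p-values may be too small if animals were shared.

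Astrocytes respond to injury, infection and inflammation by changing their transcriptome. Cytokines of the interleukin-6 family bind receptors that share the signal transducer gp130, encoded by Il6st, and act through JAK kinases and STAT3. Interleukin-1, tumour necrosis factor and toll-like receptor ligands act through NF-kB. Earlier work sorted the induced genes into those shared by several insults (pan-reactive), those induced mainly by lipopolysaccharide and those induced mainly by ischaemia. NFIA is known for its part in the making of astrocytes during development and for shaping astrocytes of the adult brain by region.

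Recovered reads ranged from 1090777 to 24297573 per library, with the fewest in brainstem labelled knockout 3, where 1 read was worth 5.75. The ribosomal transcript Rn45s took 0.966% to 3.33% of reads in olfactory bulb and hippocampus, except for 20.8% in olfactory bulb labelled knockout 3, and 13.5% to 25.6% in cortex and brainstem. That olfactory bulb library also stood apart in its counts, with a chi-square per degree of freedom of 84.8 and 123.2 against the other libraries of its group, which gave 11.2 between themselves. The part of Rn45s in the comparisons between regions was not tested. The targeted gene Nfia was higher in all 12 libraries labelled knockout than in the controls of their region. Its range was 3313 to 7457 in controls and 7476 to 13320 in libraries labelled knockout, and its log2 fold change averaged over regions was 0.90 (SE 0.09, limma adjusted p = 1.92e-07). These reads cover the whole gene and do not show the floxed exon on its own, so every direction below rests on the deposited labels. All 10 astrocyte markers were detected in all 8 groups, with summed levels of 109562 to 656505 per library, but markers of other cells were present too. The 8 choroid plexus markers summed to 73503 to 148994 in hippocampal controls and to 2224 to 6163 in hippocampal libraries labelled knockout, and 7 of the 8 fell there in the limma test. In these sorted bulk samples a gene that is lower because fewer cells of a type were present cannot be told apart from one with less RNA per cell.

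Levels of the members spanned a wide range. Set per kilobase of exon, on read counts scaled jointly over all libraries, Il6st was the most abundant member in controls, with a mean of 188 over the 12 control libraries. Serpina3n followed at 79.6 and Stat3 at 55.9, and then came S100a10 and Srgn, both at 35.5 (S100a10 35.48, Srgn 35.45) and not separable within their spread. Slc10a6, a transporter gene, was the lowest at 0.0249. Reads were found in all 24 libraries for 13 of the 31 members, and 3 members, Il6st, Stat3 and Osmr, reached a value of 20 in every library. Testing required 3 or more libraries at a value of 20 or higher, which 23 members passed and 8 did not.

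The 8 members below that limit gave between 10 and 143 reads each over the 24 libraries. Lcn2, which encodes the secreted iron-siderophore binder lipocalin-2 and is among the best known markers of reactive astrocytes, was at 0 in 16 libraries. Its highest value was 68.9, from 12 reads, in the brainstem library labelled knockout 3, and its next highest was 15.3 in hippocampal control 3. Steap4, a metalloreductase gene, was at 0 in 15 libraries and had its highest value, 34.5, in the same brainstem library. Timp1, an inhibitor of matrix metalloproteinases, reached at most 10.04 and gave 0 reads in all 6 cortical libraries, which allows a jointly scaled level of up to 0.607 (a floor of 3 reads, for counting error only). Cd109, a co-receptor of transforming growth factor beta, reached 34.6 in brainstem control 2. Clcf1, a cytokine of the interleukin-6 family, reached at most 5.75. B3gnt5, a glycosyltransferase gene, reached 9.11, Tgm1, a transglutaminase gene, 2.16, and Slc10a6 17.2. These 8 genes were not tested. Their groups were without overlap for 2 of them, both in cortex. Of all tested genes 7.23% were above and 7.21% below without overlap in cortex. No share was counted for genes under the filter, so these 2 cannot be set against one. B3gnt5 was at 0.857, 0 and 0 in cortical controls (1 read in all) and at 9.11, 3.06 and 5.77 in libraries labelled knockout (21 reads), and Cd109 was at 4.29, 0.994 and 2.44 (8 reads) against 0.828, 0 and 0 (1 read).

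The first question was whether the members differed between libraries labelled knockout and controls. Log2 of the value plus 5 was compared with limma over all 12673 genes that passed the filter, so that fold changes of low genes are understated, and genes at a Benjamini-Hochberg adjusted p under 0.05 were called. Averaged over the regions, 3 of 23 tested members were called, where 5.88% of all tested genes were called. Il6st and Ptx3 were higher in libraries labelled knockout (2.79% of all genes were), and Serpina3n was lower (3.09%). By single regions olfactory bulb had 0 of 23 (0.0868% of all genes), hippocampus 0 of 23 (2.51%) and cortex 0 of 23 (0.324%). Brainstem had 1 of 23 (0.773%), which was Il6st, and it was higher (0.544% of all genes were). At an unadjusted p under 0.05, limma gave 6, 1, 3 and 1 members in these regions, beside 5.20%, 13.6%, 5.70% and 15.2% of all genes. No member passed the test for a difference of the effect among regions (0.0552% of all genes), where the smallest limma adjusted p was 0.585, for Cd44, and 2 members had an unadjusted p under 0.05, beside 7.28% of all genes. In olfactory bulb, cortex and the test among regions edgeR and DESeq2 called 0 members too. In hippocampus DESeq2 called 1, Ptx3, and edgeR called 0.

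Il6st encodes gp130, the signal-transducing subunit shared by the receptors of the interleukin-6 family. In olfactory bulb the controls stood at 2963.5, 2769.0 and 2765.6 and the libraries labelled knockout at 3680, 3742 and 3501. In brainstem the values were 1650, 2755 and 1697 against 3838, 3244 and 3057, and in cortex 1270, 1344 and 1558 against 1707, 2016 and 2048. The libraries labelled knockout lay above every control in these 3 regions. In hippocampus they overlapped, with 1433, 2046.5 and 1771 in controls and 1959, 2099 and 2037 in libraries labelled knockout. The ratio of means was largest in brainstem (1.66), followed by cortex (1.38), olfactory bulb (1.29) and hippocampus (1.16). On the log2 scale the average was 0.46 higher (SE 0.08, limma adjusted p = 0.000829), and it stayed past the threshold in all 9 alternatives and in all 24 fits that left out 1 library.

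The brainstem value of Il6st, 0.77 (SE 0.16, limma adjusted p = 0.0230), was less firm. It lost its call with edgeR (adjusted p = 0.0609), when brainstem libraries were fitted alone (limma adjusted p = 0.735), and without control 1 (0.151), control 3 (0.108), labelled knockout 1 (0.0732) or labelled knockout 3 (0.0513). Astrocyte markers moved with Il6st there. Their summed level was 109562, 319663 and 187890 in the 3 brainstem controls and 240076 to 307020 in the libraries labelled knockout, and 9 of 10 had a positive fold change with a median of 0.43. In olfactory bulb and cortex, where Il6st also did not overlap between groups, 5 of 10 astrocyte markers were positive, with medians of 0.01 and 0.03. The part of the astrocyte share in the brainstem value was not tested. The effect on Il6st was not shown to differ among regions (limma adjusted p = 0.817 for the F test).

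Serpina3n encodes a secreted serine protease inhibitor and is one of the most strongly induced genes of reactive astrocytes. In olfactory bulb the controls were at 378, 572 and 341 and the libraries labelled knockout at 178, 256 and 108. In cortex the values were 54.0, 24.8 and 45.1 against 19.9, 10.7 and 10.8. In both regions every library labelled knockout was below every control. Hippocampal controls stood at 134, 75.4 and 36.1 against 77.3, 39.1 and 15.9, and brainstem controls at 65.3, 126 and 92.7 against 65.8, 46.6 and 46.0, and both regions overlapped. The control mean was 2.38 times the mean of the libraries labelled knockout in olfactory bulb, 1.86 times in hippocampus, 2.99 times in cortex and 1.79 times in brainstem. No single region passed the test (limma adjusted p = 0.614, 0.394, 0.466 and 0.426 in that order). The average fell by 1.04 on the log2 scale (SE 0.22, limma adjusted p = 0.00397) and remained called in all 9 alternatives and all 24 fits without 1 library. Serpina3n belongs to a cluster of closely related genes, so reads may have been divided among copies in the authors' counting.

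Microglia markers were also lower in the average, where 12 of 12 had a negative fold change with a median of -0.28, and none of the 12 was called. In olfactory bulb, where Serpina3n was most abundant, the 12 microglia markers had a median of -0.76 and 16 genes of the response to tissue dissociation one of -0.94. In cortex, where Serpina3n had its largest ratio, those medians were -0.02 and 0.56. The part of these cells and of dissociation in the Serpina3n difference was not tested.

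Ptx3 encodes pentraxin 3, a soluble pattern recognition protein that was placed among the ischaemia-induced genes. Olfactory bulb controls were at 18.8, 21.8 and 15.9 and libraries labelled knockout at 60.1, 44.5 and 36.4. Hippocampal controls were at 7.02, 1.86 and 6.33 against 16.8, 23.4 and 25.5. In these 2 regions the libraries labelled knockout lay above every control. Cortical values overlapped, at 7.72, 10.9 and 4.88 in controls and 16.6, 22.97 and 8.65 in libraries labelled knockout. The mean in libraries labelled knockout was 2.496, 4.32 and 2.05 times that of controls in olfactory bulb, hippocampus and cortex. In brainstem Ptx3 gave 0 reads in all 6 libraries, of 21191877 reads in all.

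Ptx3 reached 20 in 7 libraries, of which only olfactory bulb control 2 was a control. It thus passed the filter through libraries labelled knockout, the group where it was high, and its p-values are not free of this. The average of Ptx3 over the 4 regions was 0.81 on the log2 scale (SE 0.22, limma adjusted p = 0.0226), and it stayed called with no filter. This call was lost with edgeR (adjusted p = 1.00), DESeq2 (0.144), voom (0.0946) and an added constant of 1 (0.0692). The average over the regions other than brainstem was chosen after seeing the data. It was 1.08 (limma adjusted p = 0.0118), and 1.46 with edgeR (adjusted p = 0.0326). Brainstem libraries stayed in both fits and entered the estimates of spread, so these p-values are not free of brainstem. Counts were low, with 30 reads in the 3 hippocampal controls together and 207 in the libraries labelled knockout. In hippocampus alone the log2 fold change was 1.45 (SE 0.43, limma adjusted p = 0.0717), and DESeq2 called it (adjusted p = 0.0261).

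**Figure D1:**
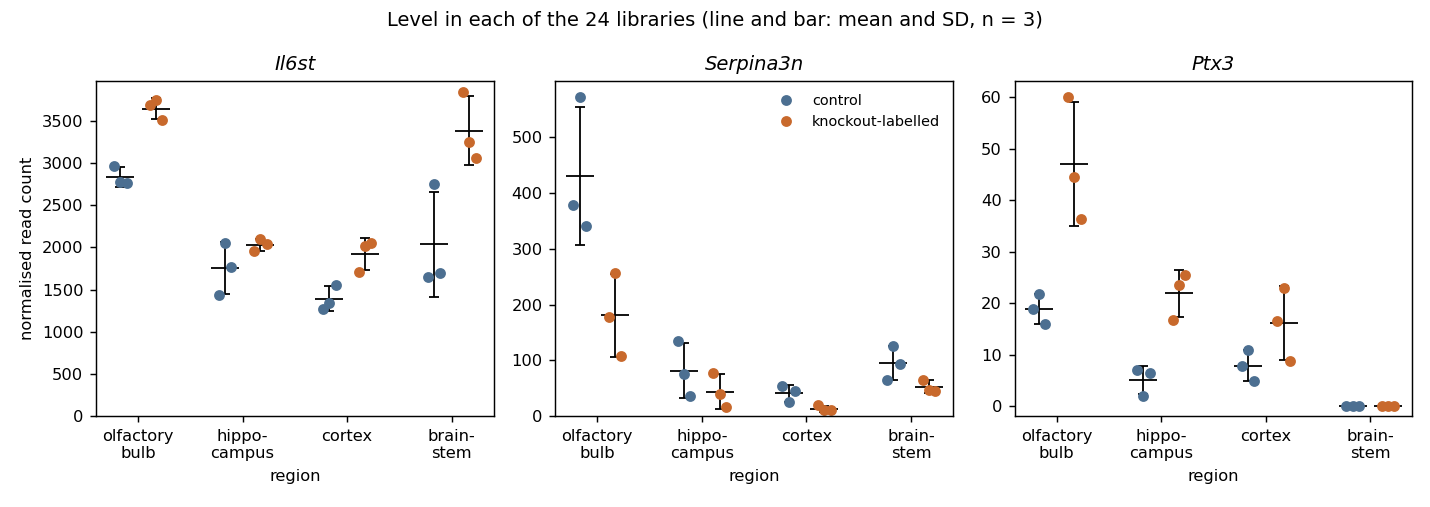
Normalised read count (y axis, from near 0) of Il6st, Serpina3n and Ptx3 in each library by region (x axis) and genotype, with points for libraries and line and bar for mean and SD (n = 3). Il6st was above every control in 3 regions, Serpina3n was below every control in olfactory bulb and cortex, and Ptx3 was at 0 in all 6 brainstem libraries.

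The upstream sequences of the 3 genes called in the average are shown for comparison of what lies before their starts, since NFIA binds the palindrome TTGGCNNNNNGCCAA or its core TTGGC and STAT3 binds TTCNNNGAA. They are the 250 bases before the start that RefSeq gives on GRCm38.p6, 5′ to 3′ on the plus strand, which is the strand of all 3 genes. Il6st lies at chr13:112463820-112464069, Serpina3n at chr12:104406458-104406707 and Ptx3 at chr3:66219637-66219886. Capitals mark matches to any of the 3 motifs on either strand.
Il6st: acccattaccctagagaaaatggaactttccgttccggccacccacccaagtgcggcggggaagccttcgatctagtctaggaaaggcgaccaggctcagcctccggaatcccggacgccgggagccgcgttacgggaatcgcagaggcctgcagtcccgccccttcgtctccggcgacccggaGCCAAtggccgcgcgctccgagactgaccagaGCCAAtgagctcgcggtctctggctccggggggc
Serpina3n: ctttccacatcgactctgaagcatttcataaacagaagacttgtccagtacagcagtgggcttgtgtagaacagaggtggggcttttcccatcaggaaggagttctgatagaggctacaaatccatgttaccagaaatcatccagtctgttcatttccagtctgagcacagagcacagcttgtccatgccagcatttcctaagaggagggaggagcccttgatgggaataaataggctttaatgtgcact
Ptx3: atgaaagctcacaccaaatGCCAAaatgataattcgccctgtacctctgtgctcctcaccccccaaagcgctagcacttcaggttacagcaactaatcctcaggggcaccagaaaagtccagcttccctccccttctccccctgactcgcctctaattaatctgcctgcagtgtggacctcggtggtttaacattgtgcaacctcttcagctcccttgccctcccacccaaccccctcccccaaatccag
Il6st held 2 matches to the NFI core, which begin 66 and 34 bases before the start, and Ptx3 held 1, at 231 bases. Serpina3n held none of the 3 motifs in this window. Such matches are common: TTGGC or its reverse complement was in 41.5% of 32851 mouse promoters of this length, the STAT motif in 7.02% and the NFI palindrome, each match of which also contains the core, in 0.0365%. Among the 26 members with a RefSeq promoter, 16 held the core at 1 or more of their starts, 4 held the STAT motif (Steap4, Tgm1, Sphk1 and Emp1) and 0 held the palindrome. These are counts of genes, which had up to 5 starts each and 35 promoters in all. The shares above are of single promoters, so the 2 cannot be compared directly. A match is a run of letters and was not tested for binding.

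The other receptors and transducers are described next. Stat3, which carries the signal of gp130 to the nucleus, was between 347 and 692 in all 24 libraries, and its average log2 fold change was -0.10 with a 95% interval of -0.29 to 0.09. Osmr, the receptor subunit for oncostatin M that pairs with gp130, ranged from 55.1 to 404. Its median over the libraries was 122, and its groups overlapped in every region. The average of Osmr was -0.37, with a 95% interval of -0.90 to 0.16.

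Cd44, a hyaluronan receptor, stood at 36.5, 59.8 and 43.8 in olfactory bulb controls and at 11.2, 20.1 and 21.3 in libraries labelled knockout. These did not overlap, but the difference did not pass (log2 fold change -1.20, limma adjusted p = 0.798). In brainstem Cd44 had the opposite sign, at 62.1, 20.3 and 144 against 100.6, 75.6 and 207 (0.94, limma adjusted p = 0.338). Cd14, a co-receptor of toll-like receptor 4, was between 1.1999 and 55.5 in 23 libraries and at 253 in the brainstem library labelled knockout 3. Of the 7 tested receptors and transducers, 2 had a positive and 5 a negative average.

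S1pr3 and Sphk1 belong to 1 signalling pathway: Sphk1 encodes a kinase that makes sphingosine 1-phosphate and S1pr3 a receptor for it. In olfactory bulb S1pr3 stood at 107, 109.8 and 77.1 in controls and at 61.2, 57.6 and 69.0 in libraries labelled knockout, without overlap (log2 fold change -0.60, limma adjusted p = 1.00). Sphk1 overlapped there, at 124, 236 and 147 against 211, 197 and 246. The Sphk1 fold changes were alike in the 4 regions, between 0.31 and 0.47, but outside olfactory bulb they rest on values of at most 7.66. Its average was 0.40 (SE 0.22, limma adjusted p = 0.350).

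**Figure D2:**
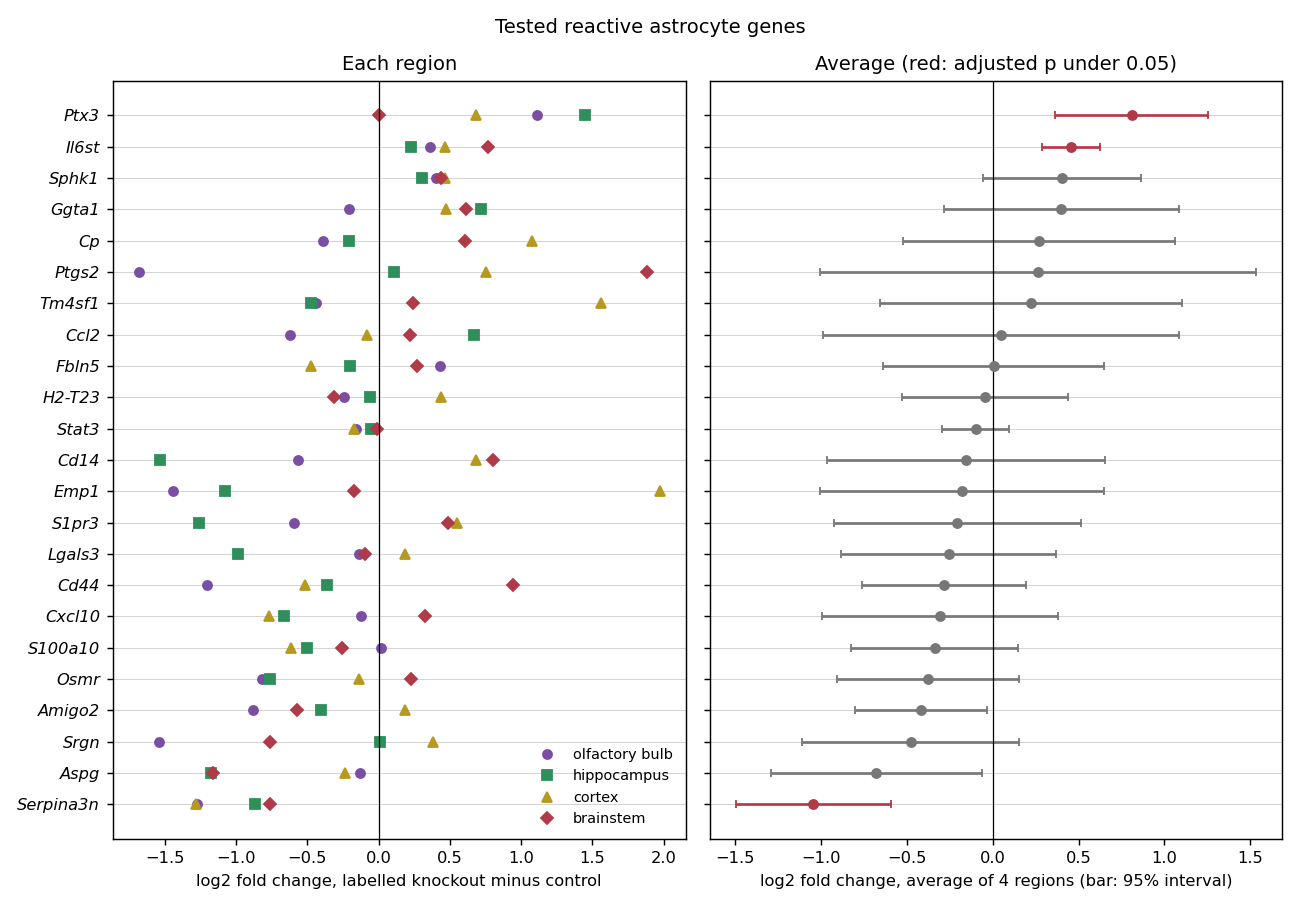
Log2 fold change of libraries labelled knockout against controls (x axes) for the 23 tested members (y axis), by region on the left and averaged over regions with its 95% interval on the right. The intervals of Ptx3, Il6st and Serpina3n, which were called, do not reach 0, and those of Amigo2 and Aspg do not either, but their adjusted p-values missed the threshold.

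Amigo2, a membrane protein with leucine-rich repeats that was placed among the lipopolysaccharide-induced genes, was lower in libraries labelled knockout without overlap in 2 regions. In olfactory bulb it was at 57.5, 62.2 and 62.3 in controls and 31.6, 25.004 and 36.4 in libraries labelled knockout. In brainstem it was at 49.2, 34.6 and 53.9 against 28.4, 24.1 and 34.5. The differences were -0.88 and -0.57 (limma adjusted p = 0.862 and 0.486), and the average of -0.42 did not pass (limma adjusted p = 0.214). S100a10, the annexin A2 partner p11, was at 19.7, 26.8 and 14.6 in cortical controls and at 13.3, 9.19 and 11.5 in libraries labelled knockout, without overlap (-0.62, limma adjusted p = 1.00). In olfactory bulb its libraries labelled knockout spread from 3.06 to 53.9.

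In olfactory bulb 7 of 23 members, or 30.4%, had all 3 libraries labelled knockout below all 3 controls, where 6.86% of all genes did. They were Serpina3n, S1pr3, Cd44, Cp, Srgn, Amigo2 and Ptgs2. Il6st and Ptx3, 8.70% of the members, were above without overlap, where 7.19% of all genes were. Of the 23 members 18 had a negative fold change, with a median of -0.39 against -0.01 over all tested genes, and none was called. Without the library labelled knockout 3, 18 were negative with a median of -0.37, and the median was -0.17 without control 1 and -0.68 without control 3. Srgn, a proteoglycan core protein of secretory granules that blood and immune cells also express, was at 68.6, 125 and 38.8 in controls and at 19.4, 29.9 and 15.0 in libraries labelled knockout. Ptgs2, the inducible cyclooxygenase, was at 6.64, 31.5 and 19.7 against 1.02, 5.56 and 0. Cp, the copper-carrying ferroxidase ceruloplasmin, was at 241, 157 and 146 against 133, 139 and 129. These groups are separate, though the nearest libraries of Cp lie close together.

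Other markers were lower in the same libraries. The 12 microglia markers, which hold no member, summed to 5205, 5998 and 2309 in olfactory bulb controls and to 2117 to 2883 in libraries labelled knockout, and 12 of 12 were negative. The 16 dissociation genes summed to 5122, 4361 and 2398 in controls and to 1873 to 1937, and 16 of 16 were negative. The 6 border macrophage markers had a median of -0.63. None of these 34 genes was called, and their part in the members' values was not tested.

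In hippocampus 16 of 23 members had a negative fold change, with a median of -0.36 against 0.00 over all genes. This shift rested on single libraries: 11 of 23 were negative without control 1, with a median of 0.03, and 12 without the library labelled knockout 3, with a median of -0.01. The median was -0.66 without control 3. Ptx3 alone lay above without overlap (4.35% of members, 9.76% of all genes) and Aspg alone below (4.35%, beside 10.4%), shares under those of all genes. Aspg, an asparaginase gene, was at 15.3, 21.4 and 10.8 in controls against 6.29, 5.02 and 1.4999 (log2 fold change -1.18, limma adjusted p = 0.396). Hippocampal control 1 held the highest values of several members. In it Emp1 was at 135, Fbln5 at 230, Tm4sf1 at 125 and Cp at 379, while the other 2 controls were at 11.2 and 0, 27.9 and 46.2, 8.38 and 18.6, and 100.51 and 30.2. Endothelial markers summed to 3616 in control 1 and to 1808 and 654 in controls 2 and 3, and dissociation genes to 7717, 2022 and 512. Fibroblast and meningeal markers summed to 4044, 2189 and 2566 in the controls and to 825, 718 and 432 in libraries labelled knockout, and 1 of 8 was called lower. Ependymal markers were separate too, at 129 to 186 against 26.0 to 42.8. The part of these cells and of dissociation was not tested.

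In cortex the signs were mostly the other way, with 14 of 23 members positive and a median of 0.38 against 0.00 over all genes. The median stayed positive without any 1 library, at 0.17 without control 2, 0.16 without control 3 and 0.24 without the library labelled knockout 2. Emp1 and Il6st were above without overlap (8.70% of members, 7.23% of all genes), and Serpina3n and S100a10 below (8.70%, beside 7.21%). Emp1, an epithelial membrane protein gene, was at 7.72, 1.99 and 4.88 in controls and at 14.1, 71.96 and 30.995 in libraries labelled knockout (1.97, limma adjusted p = 0.709). Tm4sf1, a tetraspanin-like gene also expressed by endothelial cells, was at 32.6, 2.98 and 31.7 against 14.9, 142 and 90.8. Both genes were highest in the libraries labelled knockout 2 and 3, where endothelial markers were highest as well. Those 9 markers summed to 1509, 504 and 2030 in controls and to 1035, 2869 and 3690 in libraries labelled knockout, and 9 of 9 were positive with a median of 0.86. Their part was not tested.

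In brainstem 13 members were positive and 9 negative, and Ptx3 had no reads. The median was 0.23, and -0.05 with voom. Without the library labelled knockout 3, 8 were positive and 15 negative with a median of -0.18, and without control 2 the median was 0.08. Il6st was the 1 member above without overlap (4.35%, beside 5.41% of all genes) and Amigo2 the 1 below (4.35%, beside 5.65%). The library labelled knockout 3 stood apart for genes of inflammation. Ptgs2 was at 534 in it and at most 99.8 in the other 23 libraries, and Ccl2, a chemokine for monocytes, at 144 and at most 60.4. Cd14 and Lcn2 were highest in it too, as given above, and so was Cd44. Osmr was at 270, above the 60.6 and 104 of the other 2 libraries of its group. Dissociation genes summed to 12391 in this library and to 1464 and 2008 in those 2, and microglia markers to 5467 against 2083 and 2808. Of 6 neutrophil markers 5 were in the tables and 0 passed the filter. Their summed level was 85.8 in this library, from 2 of the 5, and 0 in the other 5 brainstem libraries. The part of dissociation, microglia or neutrophils was not tested.

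Sorted by class, the 7 tested pan-reactive genes had 0 positive and 7 negative values in olfactory bulb and in hippocampus, with medians of -0.60 and -0.76. Without olfactory bulb control 1, 2 were positive there (median -0.53). In hippocampus 1 was positive without labelled knockout 3 (median -0.36) or without control 1 (-0.49). The median stayed negative in both regions without any 1 library. The same genes had 2 positive in cortex (median -0.24) and 5 positive in brainstem (0.33), where the median was -0.02 without the library labelled knockout 3. The 5 lipopolysaccharide-induced genes had medians of -0.24, -0.06, 0.38 and -0.31 in olfactory bulb, hippocampus, cortex and brainstem. The 8 tested ischaemia-induced genes had medians of -0.30, -0.26, 0.68 and 0.12. Without hippocampal control 1 the hippocampal medians of these 2 classes were 0.48 and 0.37, and without hippocampal labelled knockout 3 they were 0.16 and 0.04. The lipopolysaccharide-induced median was also 0.16 without hippocampal control 2 and -0.02 in cortex without control 2, and the ischaemia-induced median in brainstem was -0.14 without labelled knockout 3. In the average 1 pan-reactive gene was lower (Serpina3n), 1 ischaemia-induced gene was higher (Ptx3), and 0 of 5 lipopolysaccharide-induced genes were called by limma. Of those 5, Amigo2 had an unadjusted p under 0.05 and the other 4 did not. H2-T23, one of these 5, is a class I histocompatibility gene with close relatives, among which reads may have been divided.

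**Figure D3:**
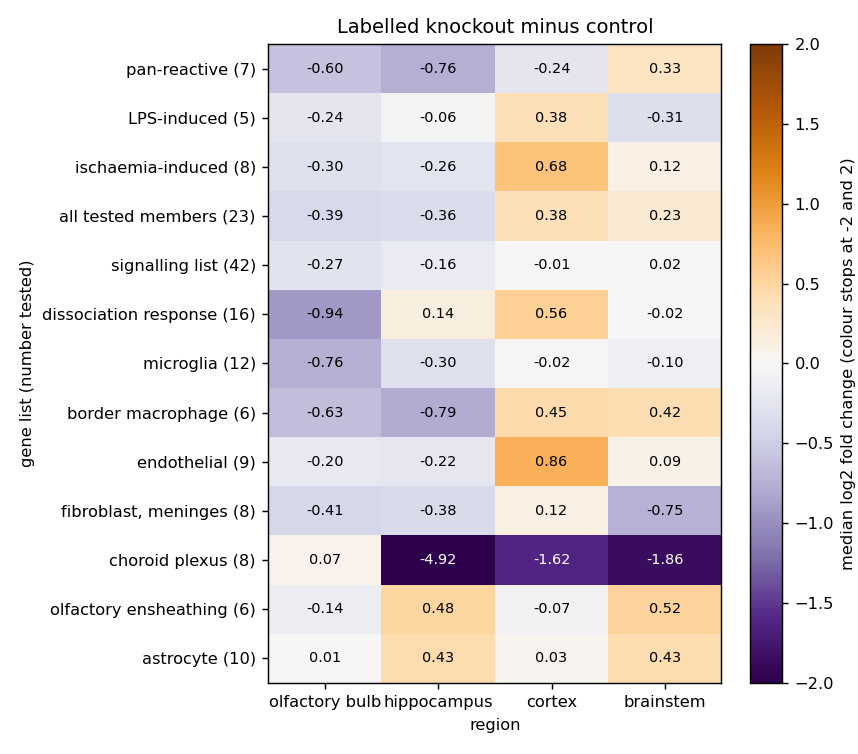
Median log2 fold change of libraries labelled knockout against controls (colour and printed value) for gene lists (y axis, number tested in brackets) by region (x axis). In olfactory bulb the tested members (-0.39) are lower beside dissociation (-0.94) and microglia (-0.76) genes, and in cortex they are higher (0.38) beside endothelial markers (0.86).

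The ligands, receptors, kinases and inhibitors upstream of the members were given by a list of 52 other genes, of which 42 were tested. In the average 0 of 42 were higher (2.79% of all genes) and 2 were lower (3.09%). Lif, which encodes leukaemia inhibitory factor, a ligand that signals through gp130, was at 19.1, 44.7 and 44.7 in hippocampal controls and at 3.56, 0 and 0.900 in libraries labelled knockout. In cortex Lif was at 12.9, 39.7 and 15.8 against 0, 0 and 1.44. Neither region overlapped. In olfactory bulb all 6 values were at most 4.38, and in brainstem controls were at 2.14, 14.2 and 8.63 against 2.58, 0 and 5.75. Lif fell by 1.48 on the log2 scale in the average (SE 0.26, limma adjusted p = 0.000735). In hippocampus it fell by 2.63 (SE 0.52, limma adjusted p = 0.00579) and was the 1 gene of the list called, where 2.51% of all genes were. In cortex it missed the threshold (-2.23, limma adjusted p = 0.0530).

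Cish, which encodes a STAT-induced inhibitor of cytokine signalling, was at 92.5, 19.5 and 24.6 in hippocampal controls and at 2.31, 3.35 and 2.9997 in libraries labelled knockout. In brainstem it was at 166, 77.3 and 58.2 against 10.3, 94.8 and 0. In cortex it was at 15.4, 22.9 and 8.53 against 0.828, 0 and 6.49. In olfactory bulb it was at 14.4, 15.3 and 3.83 against 6.12, 0.695 and 6.27. The groups did not overlap in hippocampus and cortex and overlapped in brainstem and olfactory bulb. The average of Cish fell by 1.74 (SE 0.36, limma adjusted p = 0.00358). Among libraries labelled knockout only brainstem 2 reached 20, so Cish passed the filter through controls, the group where it was high. Calls of single genes of the signalling list were not checked in the alternatives or in fits without 1 library. The highest brainstem library labelled knockout for Cish, library 2, was also the highest of its group for choroid plexus markers, which summed to 65360, 93632 and 4346 in that group and to 246823, 51472 and 121401 in controls. Choroid plexus markers were lower in hippocampal libraries labelled knockout as well. In cortex their sums overlapped, at 66741, 4943 and 1651 in controls and 2929, 8049 and 369 in libraries labelled knockout, of which the one with 8049 had Cish and Lif at 0. The part of choroid plexus in the Cish and Lif differences was not tested. In olfactory bulb, cortex and brainstem 0 of 42 genes were called by limma. In olfactory bulb 34 of 42 were negative, with a median of -0.27. The list shares Junb and Atf3 with the dissociation genes, C1qa with the microglia markers and Sox9 with the astrocyte markers.

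The second question was how the members differed between control astrocytes of the 4 regions. Each region's 3 controls were compared with the mean of the other 3 regions on jointly scaled counts, over 12759 genes, and a gene was called at a limma adjusted p under 0.05 and an absolute log2 fold change above 1. In olfactory bulb 4 of 23 members were called (8.58% of all genes), all 4 higher (4.47%). They were Sphk1, Serpina3n, S1pr3 and Ptx3. In hippocampus 1 was called (1.73%), which was lower (1.00%), and in cortex 2 (3.49%), both lower (1.72%). In brainstem 5 were called (9.81%), 2 of them higher (5.56%) and 3 lower (4.26%).

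Sphk1 had the largest log2 difference between control regions among the tested members. Its jointly scaled level was 123.4, 235 and 147 in olfactory bulb controls and between 0 and 6.35 in the 9 controls of the other regions, so that no values overlapped. The olfactory bulb mean was 168 ± 58.8 (SD, n = 3). Hippocampus followed at 2.12 ± 3.66, then cortex at 2.11 ± 1.83 and brainstem at 0.714 ± 1.24, and these last 3 do not differ beyond their spread. Olfactory bulb was 4.72 higher on the log2 scale (SE 0.38, limma adjusted p = 2.20e-10), in every alternative, no filter among them, and every fit without 1 library. Deposited values of Sphk1 reached 20 in 6 libraries, all of olfactory bulb. Sphk1 thus passed the filter through the region in which it was called higher, and its p-values are not free of this. Sphk1 was also called lower in hippocampus, cortex and brainstem, each of which was compared with a mean that includes olfactory bulb. The brainstem call held in every setting. The hippocampal and cortical calls were lost with edgeR (adjusted p = 0.594 and 0.559), an added constant of 1 (limma adjusted p = 0.108 and 0.202) and controls alone (0.0825 and 0.0647), and with a constant of 20 they fell under the fold threshold. They were also lost without hippocampal control 2 (0.147) or control 3 (0.149), and without cortical control 2 (0.189) or control 3 (0.0548). Deposited values of libraries labelled knockout were 197 to 246 in olfactory bulb and at most 7.66 elsewhere. Markers of olfactory ensheathing cells, glia of the olfactory nerve, were also higher in olfactory bulb controls, where 5 of 6 were called, among them Npy, Frzb and Fabp7. Their part in the Sphk1 level was not tested.

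Serpina3n was at 377, 570 and 340 in olfactory bulb controls and at 31.5 to 133 in the other 9, a log2 difference of 2.51 (SE 0.36, limma adjusted p = 9.88e-06) that held in all alternatives. Its order was olfactory bulb (429 ± 123.4), brainstem (94.2 ± 30.3), hippocampus (81.5 ± 49.0) and cortex (52.3 ± 18.8; SD, n = 3), and the last 3 overlapped. The lower level in cortex was called too (-1.41, limma adjusted p = 0.0136), but not without cortical control 2 (0.192) or control 3 (0.0508). Here too the comparison was with a mean that includes olfactory bulb.

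S1pr3 was at 107, 109 and 77.0 in olfactory bulb controls, above all 9 others, which ran from 0 to 67.9. The log2 difference was 2.02 (SE 0.57, limma adjusted p = 0.0167). It was lost with an added constant of 1 (adjusted p = 0.0536), with controls fitted alone (0.0513) and without olfactory bulb control 1 (0.0757) or control 2 (0.0826). Sphk1 and S1pr3, the kinase and the receptor, both had their highest mean control level in olfactory bulb.

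Ptx3 was at 18.7, 21.7 and 15.8 in olfactory bulb controls, at 1.85 to 6.98 in hippocampus, at 6.19 to 13.9 in cortex and at 0 in brainstem. Olfactory bulb did not overlap the rest (1.40, SE 0.36, limma adjusted p = 0.00704), and with an added constant of 20 it fell under the fold threshold. Brainstem controls gave 0 of 11481176 reads, which allows up to 1.58, so their level was at least 7.12-fold lower than the mean of 11.2 in the other controls (floor of 3 reads over the group). The limma adjusted p for brainstem was 0.00207, and here too a constant of 20 took the value under the fold threshold. Il6st was higher in olfactory bulb as well, at 2759 to 2952 against 1426 to 2742 in the other 9, but by 0.64 on the log2 scale, under the fold threshold.

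Brainstem controls were higher in 2 further members. S100a10 was at 68.1, 66.8 and 87.9 there and at most 64.0 elsewhere (1.16, SE 0.39, limma adjusted p = 0.0390). Fbln5, an elastic fibre protein, was at 157.5, 129.5 and 85.7 there, but hippocampal control 1 was at 229 (1.58, SE 0.52, limma adjusted p = 0.0370). Neither was firm. S100a10 lost its call with a constant of 1 (limma adjusted p = 0.0763), with a constant of 20 (under the fold threshold) and without a filter (0.0596). It was also lost in 7 of 12 fits without 1 library, which left out any brainstem control, olfactory bulb control 3, hippocampal control 1 or 3 or cortical control 3 (0.0522 to 0.163). Fbln5 lost its call with edgeR (adjusted p = 0.0620), a constant of 1 (0.0510) and no filter (0.0646), and in 9 of 12 fits without 1 library (0.0502 to 0.178). These left out any brainstem control, olfactory bulb control 1 or 2, hippocampal control 2 or 3, or cortical control 2 or 3. Fibroblast and meningeal markers summed to 9129, 1908 and 3393 in the same brainstem controls and to 576 to 4044 in those of the other regions, and 9 endothelial markers had a median of 0.83 there. Their part was not tested.

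Ggta1, a galactosyltransferase gene placed among the lipopolysaccharide-induced genes, was at 12.8, 0 and 30.0 in brainstem controls. The other controls ran from 6.67 to 111, so that the groups overlapped, and the log2 difference was -1.80 (SE 0.54, limma adjusted p = 0.0208). The call was lost with edgeR (adjusted p = 0.0612), with controls alone (0.0766), and without brainstem control 1 (0.0612) or control 2 (0.216). Of the 23 tested members 15 were called neither in any knockout comparison nor in any control region. Among them Cxcl10, a chemokine for T cells, ranged from 0 to 43.6, Lgals3, the lectin galectin-3, from 0 to 23.7 and H2-T23 from 3.97 to 50.9.

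**Figure D4:**
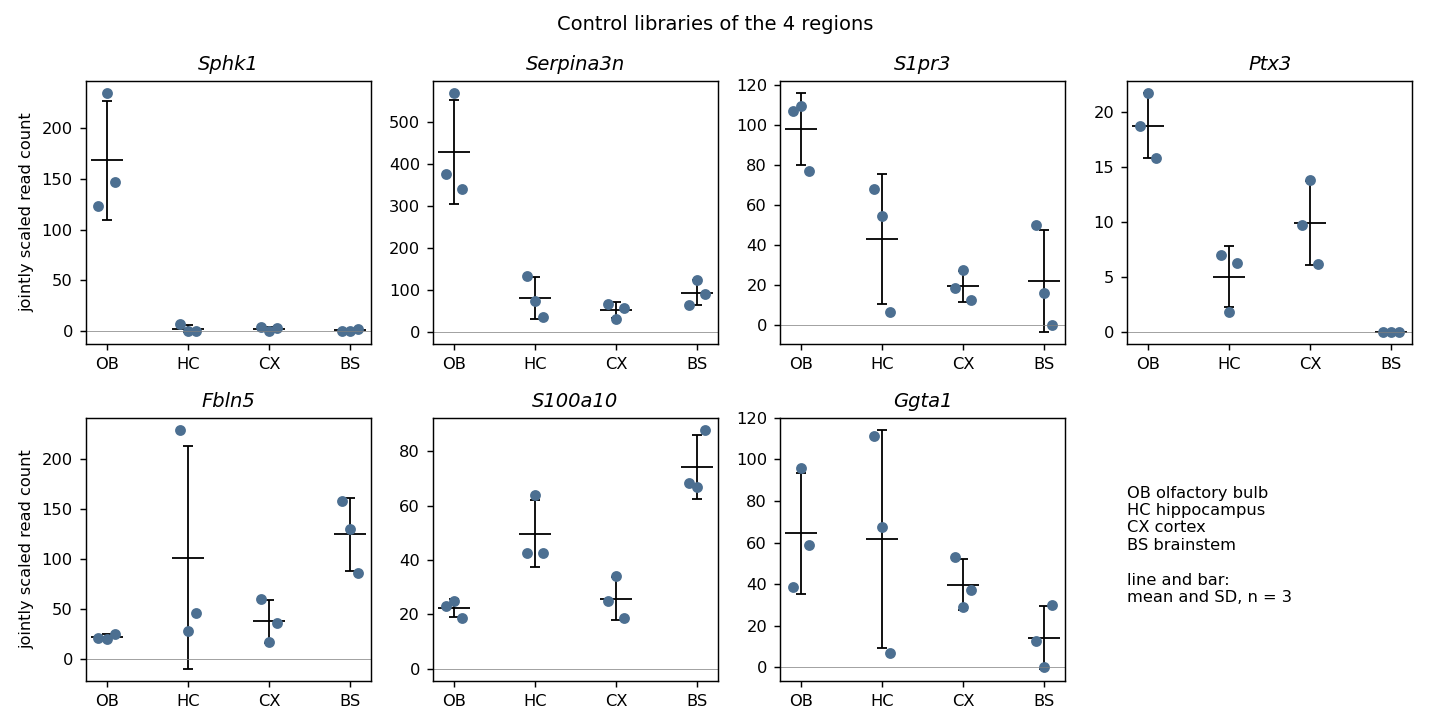
Jointly scaled read count (y axes) of the 7 members called in a control region comparison, in each control library by region (x axis), with line and bar for mean and SD (n = 3). Sphk1 lies between 123.4 and 235 in olfactory bulb and at or below 6.35 elsewhere, and Ptx3 is at 0 in the 3 brainstem controls.

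Of the 42 tested genes of the signalling list 3 were called in olfactory bulb controls (8.58% of all genes) and 2 in brainstem controls (9.81%), fewer than the share of all genes, and limma called 0 in hippocampus or cortex. Tlr4, the lipopolysaccharide receptor for which Cd14 is a co-receptor, had a mean of 262 ± 63.6 (SD, n = 3) in olfactory bulb and of 44.7, 53.5 and 24.9 in hippocampus, cortex and brainstem. It was higher in olfactory bulb (2.59, SE 0.38, limma adjusted p = 1.09e-05) and lower in brainstem (-1.63, limma adjusted p = 0.00246). Cd14 was not called in any region. Cebpd, an acute phase transcription factor, was higher in olfactory bulb (1.65, limma adjusted p = 0.0370) and Lif was lower there (-1.68, limma adjusted p = 0.00766). Cish was higher in brainstem controls (1.96, limma adjusted p = 0.0196), in which 7 of 8 choroid plexus markers were called higher.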

How the data were processed

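The authors deposited 1 table of normalised read counts per library (unit: signal). The submitters' processing notes name STAR 2.5.0a, mm10 and DESeq2 1.20.0, and the counting tool and annotation are not given in the sources used here. Every deposited signal value was a whole number of reads, within 0.01 read, divided by 1 factor per library, so that reads could be recovered. The cortical factors equalled median-of-ratios size factors of the 6 cortical libraries alone and were 1.26 to 1.27 times joint factors, and the others 0.994 to 0.998 times. Comparisons within a region therefore used deposited values, and those between control regions used reads rescaled jointly.

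Genes at 20 or more in at least 3 libraries were tested on log2(value + 5) with limma 3.58.1 in R 4.3.3, with 1 mean per group, an intensity trend and robust moderation (16 residual degrees of freedom). The filter took libraries of all groups, so a gene could pass through the group in which it was high. Tests were two-sided, and Benjamini-Hochberg adjustment was over all tested genes within each comparison. Alternatives were edgeR 4.0.16 and DESeq2 1.42.0 on recovered reads, voom with sample weights, added constants of 1 and 20, no low-value filter, the replicate number as a block, libraries of a region or controls alone, no fold threshold, and each library left out. Averages over the regions other than brainstem, from fits that kept the brainstem libraries, were added after seeing the data. The scripts were tested on simulated data. The members, lists and tests were chosen with earlier results of these data known.

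Values are given library by library for members called in any comparison and for those without overlap between genotypes in at least 2 regions in 1 direction. Other members are given by range and counts, and those described singly beyond this rule were chosen after their values were seen. Gene positions and exon lengths came from GENCODE vM21 (mm10), promoters from RefSeq (GRCm38.p6). Floors cover counting error only, and 95% intervals are limma's, over the spread between libraries.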

Additional observations from a re-analysis of the deposited data

How the results depend on the processing

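Directions of the 16 member values that were called did not reverse in any alternative or fit without 1 library, and those that lost their call are named beside their values. Members called moved as follows. In hippocampus (0) DESeq2 and no filter each gave 1, Ptx3. In brainstem (1) edgeR and brainstem alone gave 0. In control hippocampus (1) edgeR, added constants of 1 and 20 and controls alone gave 0, and in control cortex (2) the same settings gave 1. In control brainstem (5) edgeR, constants of 1 and 20 and no filter gave 3.

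All genes called moved further. In olfactory bulb (11) the count was 56 with DESeq2, 49 with voom, 22 with a constant of 20, 76 for the region alone and 19 with the replicate block. In hippocampus (318) it was 638 with DESeq2. In cortex (41) it was 92 with DESeq2, 124 with voom, 22 without a filter and 142 alone. In brainstem (98) it was 32 with edgeR and 0 alone. The average (745) gave 431 over the regions other than brainstem, and 446 with edgeR. The test among regions (7) gave 15 with edgeR, 85 with DESeq2, 23 with voom, 12 with a constant of 1, 0 without a filter and 21 with the block. Without the fold threshold the controls gave 1809, 365, 871 and 2246 in olfactory bulb, hippocampus, cortex and brainstem.

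Without 1 library, members called ranged from 0 to 0 in olfactory bulb, hippocampus, cortex and the test among regions, 0 to 1 in brainstem and 3 to 3 in the average. In controls they ranged from 3 to 5, 0 to 1, 0 to 2 and 3 to 6 in the same order of regions. All genes ranged from 3 to 9, 90 to 251, 16 to 25 and 17 to 892 in the 4 regions, 539 to 1293 in the average, 0 to 89 among regions, and 873 to 1223, 168 to 307, 253 to 563 and 851 to 1488 in controls. The brainstem count was 892 without control 2, 205 without labelled knockout 2, 39 without control 3, 22 without labelled knockout 3 and 17 without control 1. The cause was not tested.

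The rule for treating replicate numbers as pairs was that every same-numbered pair should correlate above 0.1, and it was not met. This cutoff cannot exclude that some libraries were paired. In hippocampus controls and libraries labelled knockout of numbers 1, 2 and 3 correlated at 0.27, 0.04 and 0.32. Control 1 with labelled knockout 3 gave -0.29 there, and control 3 with labelled knockout 1 gave -0.27. Controls and libraries labelled knockout of 1 number correlated at -0.11 to 0.32 within regions. Between control regions the range was -0.20 to 0.32, with 0.23, 0.095 and 0.32 for olfactory bulb and hippocampus. With the block the members called were 0, 0, 0 and 1 in the regions, 3 in the average, and 5, 1, 2 and 5 in controls. The block joined libraries within a region for the genotype comparisons and within a genotype for the controls. No alternative joined the regions of a genotype in the average. The 8 untested members fell under a filter on normalised value, and they gave few reads, 10 to 143 each over the 24 libraries. In brainstem depth limits any value near that of 1 read.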
